A study of Homo sapiens with 6 samples.

Results

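Messenger RNA of the glutathione, thioredoxin and NRF2 systems was followed in HuCCT1, an established human cell line from a bile duct cancer (cholangiocarcinoma), after transfection with a small interfering RNA against C1QBP. A list of 42 genes was taken from the deposited gene count table by exact gene name, out of 58735 genes, and all 42 were among the 15530 genes that passed the low-count filter. The siC1QBP group comprised 3 libraries of HuCCT1 cells given the siRNA against C1QBP, which encodes a protein found mostly in mitochondria. The siNC group comprised 3 libraries of the same line given a control siRNA, with cells marked wt in the labels. All 6 libraries therefore share 1 cell line and an siRNA treatment. The siRNA sequences, dose and time after transfection were not given in the sources used here. Nothing in the labels says that replicates came from separate cultures, so each p-value reflects only the spread among these libraries, which may be technical.

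NRF2, encoded by NFE2L2, is a transcription factor that binds antioxidant response elements as a partner of small MAF proteins. KEAP1 holds it in the cytoplasm for ubiquitination by a cullin ligase, and oxidants or electrophiles that modify KEAP1 cysteines let NRF2 accumulate. Its best known targets make and recycle glutathione, reduce thioredoxin, supply NADPH, conjugate electrophiles and store iron. Glutathione peroxidases and peroxiredoxins remove peroxides with electrons from glutathione and from thioredoxin, and both chains are fed by NADPH.

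Total counts were 17122252 to 18847340 in siC1QBP and 18313264 to 20416243 in siNC libraries, so that 3 counts, the floor used here for a gene without counts, correspond to 0.159 to 0.175 CPM in siC1QBP and 0.147 to 0.164 CPM in siNC libraries. CPM is the count scaled to the normalized library size, and the floor covers counting error only. C1QBP itself stood at 59.1, 57.6 and 60.0 CPM in siC1QBP replicates 1, 2 and 3, against 175, 181 and 185 CPM in siNC replicates. All 7 keratin and epithelial markers of bile duct cells on the marker list were expressed above the filter, and 2 of them fell, KRT7 to 3151 ± 65.7 CPM in siC1QBP, against 3766 ± 74.5 CPM in siNC libraries, and KRT19 to 1658 ± 37.0 against 1888 ± 113 CPM (SD, n = 3 each). The share called among these 7 was 28.6%, against 14.3% of all tested genes. The KRT19 call ended without siNC replicate 2 or 3 and with the trend with gene length removed (adjusted p by edgeR up to 0.0794). Of 6 hepatocyte markers SERPINA1 alone passed the filter, and it rose to 490 ± 38.3 CPM in siC1QBP, against 436 ± 4.36 CPM in siNC libraries (log2 fold change 0.17, SE 0.05, adjusted p = 0.0296 by edgeR). That rise was 0.10 without siC1QBP replicate 1, and its call ended when any 1 siNC library was left out. ALB and TTR had group means of at most 0.018 CPM. None of 4 immune markers passed, while 2 of 3 endothelial and 2 of 4 fibroblast markers did. Of these, 0 were called, and 1 fibroblast marker was higher at an unadjusted edgeR p under 0.05. Within each group replicate 1 stood apart: chi-square per degree of freedom against the other 2 libraries was 6.66 and 6.77 in siC1QBP and 3.67 and 3.40 in siNC, while those 2 libraries differed from each other by 2.09 and 2.13. The share of counts in mitochondrially encoded genes was 4.20% to 4.80% in siC1QBP and 3.66% to 3.88% in siNC libraries, and the number of genes with a count was 25001 to 25506 in siC1QBP and 23395 to 23841 in siNC libraries.

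The redox list shifted gene by gene and in both directions, with the smallest p-values for the fall of thioredoxin, TXN, and for the rise of PRDX4, a peroxiredoxin of the endoplasmic reticulum. Of the 42 genes, 13 passed an adjusted p of 0.05 (edgeR quasi-likelihood test, Benjamini-Hochberg adjustment over 15530 genes), 4 higher and 9 lower in siC1QBP libraries. The share called was 31% of the list against 14.3% of all tested genes, of which 6.47% were called higher and 7.84% lower. In 22 of the 42 genes the siC1QBP and siNC libraries did not overlap in CPM, 11 with siC1QBP above and 11 with siC1QBP below siNC, against 32.6% of all tested genes (16% above and 16.6% below). In bulk RNA, a smaller share of a kind of cell and less RNA per cell cannot be told apart. Together the 42 genes held 0.7333%, 0.7426% and 0.7323% of counts in siC1QBP replicates 1, 2 and 3, against 0.7195%, 0.7513% and 0.7439% in siNC replicates, which overlap. The median log2 fold change of the list, siC1QBP over siNC, was -0.023, beside 0.0026 over all tested genes, and single genes ranged from -0.51 to 0.74. The list was drawn up with results of these libraries known, so these shares are descriptions and carry no test of the list. Without siNC replicate 2, 4 of the 42 genes passed, a share of 9.52% against 6.93% of all genes tested in that fit. Without siNC replicate 3, 7 passed (16.7% against 7.37%), and with an adjusted p of 0.01, 5 did (11.9% against 6.81%). The share called over all genes was higher among well-expressed genes. With a filter of at least 10 CPM on average, 13 of 38 listed genes passed, or 34.2% against 20.8%. In the fit on protein-coding genes 11 of 41 passed, or 26.8% against 16.9%. With library size as the only scaling 7 were called higher and 7 lower, and with upper-quartile scaling 6 and 7.

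**Figure D1:**
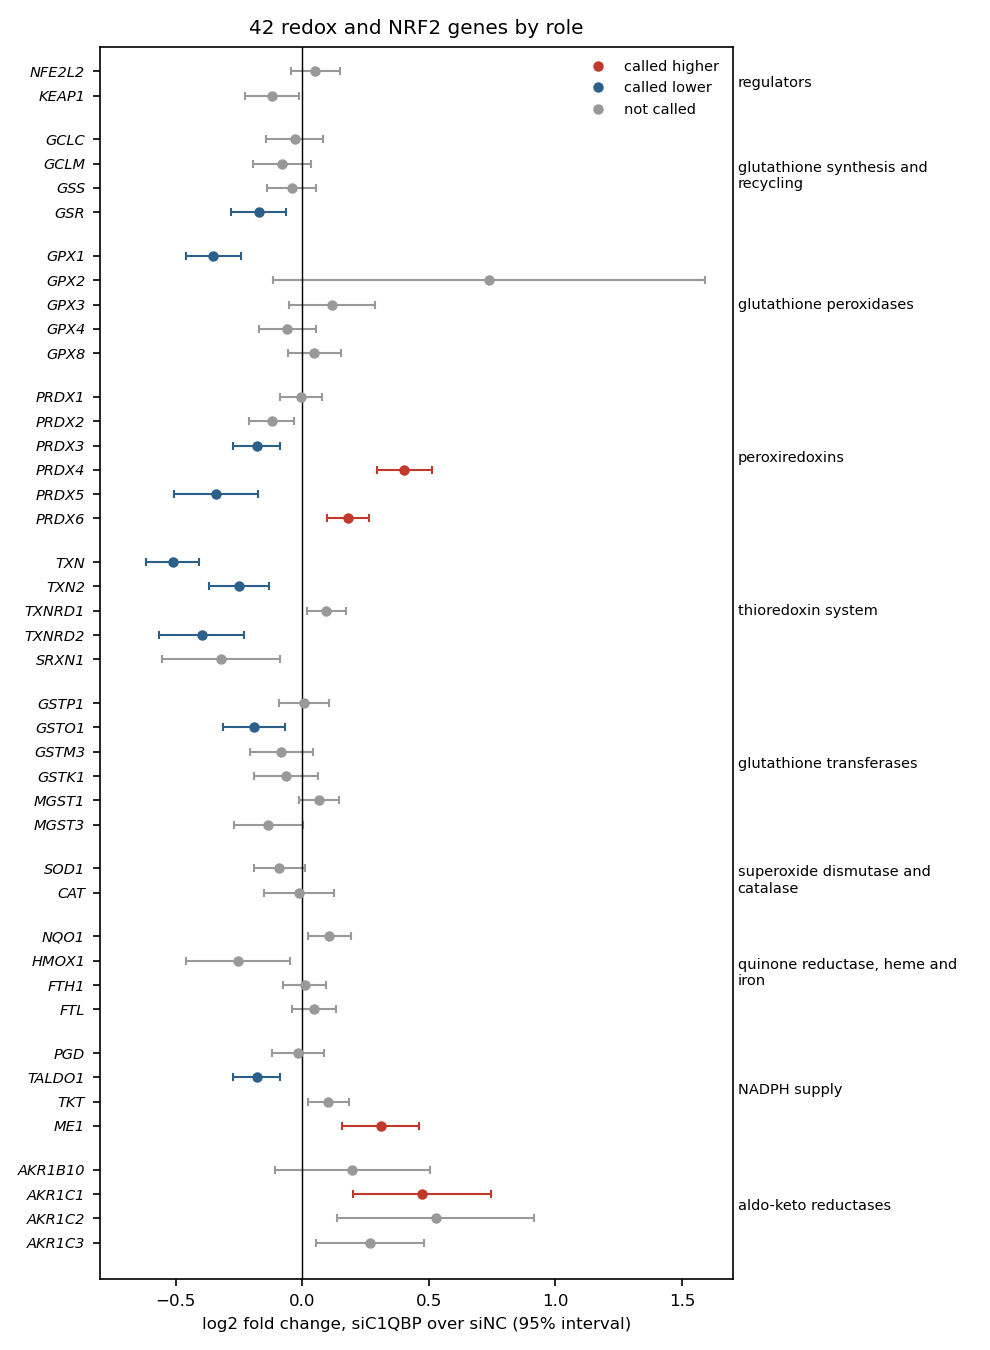
Log2 fold change (siC1QBP over siNC, x axis) of the 42 genes, grouped by role from top to bottom; points are edgeR estimates and bars are normal-approximation 95% intervals. Red points were called higher, blue points lower and grey points were not called; TXN lies at -0.51 and PRDX4 at 0.40.

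Neither NRF2 nor its repressor was called by edgeR, DESeq2 or limma-voom, and 1 of the pair, KEAP1, had an unadjusted edgeR p under 0.05. NFE2L2 (ENSG00000116044) had 130, 121 and 122 CPM in siC1QBP replicates 1, 2 and 3, against 121, 123 and 115 CPM in siNC replicates (log2 fold change 0.05, 95% interval -0.04 to 0.15, adjusted p = 0.533 by edgeR). The groups overlapped. NFE2L2 shares its annotated interval with AGPS on the opposite strand, whose counts came to 87% of those of NFE2L2. The strand setting of the counting was not given in the sources used here. KEAP1 (ENSG00000079999) had 82.0, 87.4 and 88.9 CPM in siC1QBP and 88.4, 95.4 and 96.6 CPM in siNC libraries (log2 fold change -0.12, 95% interval -0.23 to -0.01, unadjusted p = 0.0417, adjusted p = 0.153 by edgeR). Of 13 tested regulators and partners of NRF2 (14 listed), 2 were called higher and 1 lower, or 23.1% against 14.3% of all tested genes. BACH1, a repressor that competes with NRF2 at antioxidant response elements, rose to 97.5 ± 4.51 CPM in siC1QBP, against 80.2 ± 2.38 CPM in siNC libraries (SD, n = 3 each; log2 fold change 0.28, SE 0.05, adjusted p = 0.00197 by edgeR). NFE2L1, a related transcription factor, rose to 348 ± 6.45 against 303 ± 2.92 CPM (log2 fold change 0.20, SE 0.04, adjusted p = 0.00335 by edgeR). RBX1, the RING subunit of cullin ligases including the one that uses KEAP1, fell to 43.2 ± 3.94 against 64.0 ± 5.74 CPM (log2 fold change -0.57, SE 0.08, adjusted p = 0.000144 by edgeR). All of these 3 calls held with each library left out in turn.

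Among the 4 enzymes that make and recycle glutathione only the recycling enzyme passed (25%, against 14.3% of all tested genes). GCLC and GCLM, the catalytic and modifier subunits of glutamate-cysteine ligase, and GSS, glutathione synthetase, had log2 fold changes of -0.03, -0.08 and -0.04 (edgeR adjusted p = 0.778, 0.409 and 0.624), and the 95% intervals of all 3 lay between -0.19 and 0.08. GCLC had 93.1, 82.9 and 81.6 CPM in siC1QBP and 85.9, 90.4 and 86.6 CPM in siNC libraries. Glutathione reductase, GSR (ENSG00000104687), returns oxidized glutathione to its reduced form with NADPH. It stood at 53.9, 52.5 and 55.3 CPM in siC1QBP, against 59.9, 60.6 and 61.9 CPM in siNC libraries, so the groups did not overlap. It fell by 0.17 on the log2 scale (SE 0.05), with an adjusted p of 0.044 by edgeR. This call ended in 12 of 19 alternatives, including DESeq2 (adjusted p = 0.0689), library size only (0.0826) and the removal of any 1 library other than siC1QBP replicate 1 (adjusted p by edgeR up to 0.156).

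Glutathione peroxidases differed among themselves. GPX1, GPX2, GPX3 and GPX4, and the thioredoxin reductases TXNRD1 and TXNRD2, carry selenocysteine, which ribosomes insert at an in-frame TGA codon that would otherwise end translation; GPX8 has none. The coding sequence around that codon, which the 6 selenoprotein genes of the list share, is shown with TGA in capitals (GENCODE release 29, hg38, sense strand):
GPX1: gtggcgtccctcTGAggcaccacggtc
GPX2: gtggcttcgctcTGAggcacaaccacc
GPX3: gtggccagctacTGAggcctgacgggc
GPX4: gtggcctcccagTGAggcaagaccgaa
TXNRD1: caggctggctgcTGAggttaagcccca
TXNRD2: gtgacaggctgcTGAgggtaagcgcca
In the peroxidases the codon is internal, at position 49 of 203 in GPX1 and 73 of 197 in GPX4. In the reductases it is the last codon but 1, at position 498 of 499 in TXNRD1 and 523 of 524 in TXNRD2, and the ordinary stop codon follows. The exonic codon lies at 49358132 to 49358134 of chromosome 3 (minus strand) in GPX1 and at 19877111 to 19877113 of chromosome 22 (minus strand) in TXNRD2.

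Of these 6 selenoprotein genes 2 fell, GPX1 and TXNRD2, and 0 rose by edgeR, DESeq2 or limma-voom, with 1 higher at an unadjusted edgeR p under 0.05 (TXNRD1). The share called by edgeR was 33.3%, against 14.3% of all tested genes (6.47% higher and 7.84% lower). GPX1 (ENSG00000233276; hg38 chromosome 3, 49357171 to 49358600, minus strand), the main cytosolic glutathione peroxidase, had 230, 241 and 255 CPM in siC1QBP, against 281, 327 and 319 CPM in siNC libraries. Every siC1QBP library lay below every siNC library. The log2 fold change was -0.35 (SE 0.06, adjusted p = 0.000586 by edgeR), and the call was kept in all 19 alternatives that could be fitted, with adjusted p up to 0.0105. The release 29 annotation lists GPX1 as a polymorphic pseudogene, so the fit on protein-coding genes left it out; its annotated pseudogene copy GPX1P1 held 4.5% as many counts. GPX4, which reduces lipid peroxides in membranes, had 141, 160 and 162 CPM in siC1QBP and 150, 169 and 162 CPM in siNC libraries (log2 fold change -0.06, 95% interval -0.17 to 0.05, adjusted p = 0.548 by edgeR). GPX3, the secreted enzyme, and GPX8, of the endoplasmic reticulum, were not called either (0.12 and 0.05, adjusted p = 0.41 and 0.607 by edgeR). GPX2, known from the gut epithelium, was barely present, at 0.778, 0.635 and 0.630 CPM in siC1QBP and 0.549, 0.397 and 0.272 CPM in siNC libraries, and its log2 fold change of 0.74 had a 95% interval from -0.11 to 1.59. GPX2 had 60 counts over the 6 libraries, and CHURC1, on the opposite strand of the same interval, had 3683.

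Of 20 other selenoproteins and genes of the selenocysteine machinery, all tested, 5 fell and 0 rose (25% called, against 14.3% of all tested genes, of which 7.84% were called lower), by edgeR, DESeq2 and limma-voom alike, and 7 were lower and 0 higher at an unadjusted edgeR p under 0.05. SEPHS1, a selenophosphate synthetase homologue, fell to 49.9 ± 1.56 CPM in siC1QBP, against 66.6 ± 5.11 CPM in siNC libraries (SD, n = 3 each; log2 fold change -0.42, SE 0.06, adjusted p = 0.000382 by edgeR). SELENOH, a nucleolar selenoprotein, fell to 49.6 ± 5.86 against 65.7 ± 5.01 CPM (-0.41, SE 0.08, adjusted p = 0.00241 by edgeR), and SELENOO, a mitochondrial one, to 33.3 ± 0.894 against 42.4 ± 3.19 CPM (-0.35, SE 0.07, adjusted p = 0.003 by edgeR). These 3 calls held with each library left out in turn. The remaining falls were less stable, and their calls ended in 6 and 8 of 19 alternatives. Both ended with library size only, with the length trend removed, and without siNC replicate 2 or 3. The median of the 20 was -0.13.

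The thioredoxin system held the largest fall of the list. Thioredoxin, TXN (ENSG00000136810; chromosome 9, 110243811 to 110256640, minus strand), is the small cytosolic protein that passes electrons to peroxiredoxins and ribonucleotide reductase. It had 237, 252 and 243 CPM in siC1QBP, against 317, 367 and 361 CPM in siNC libraries, with no overlap. The log2 fold change was -0.51 (95% interval -0.62 to -0.41, adjusted p = 1.48e-05 by edgeR), and it stayed between -0.58 and -0.45 and was called in all 20 alternatives. TXNRD1, the cytosolic reductase that reduces thioredoxin, did not pass. It stood at 1114, 1048 and 1049 CPM in siC1QBP and 1021, 989 and 997 CPM in siNC libraries (log2 fold change 0.09, 95% interval 0.02 to 0.17, adjusted p = 0.121 by edgeR). Although its groups did not overlap, it was called only with library size as the scaling (adjusted p = 0.0385 by edgeR), a filter of 10 CPM (0.0439) or both replicates 1 left out (0.0097). SRXN1, sulfiredoxin, which repairs overoxidized peroxiredoxins, had 14.8, 23.4 and 21.1 CPM in siC1QBP and 24.2, 25.8 and 24.0 CPM in siNC libraries. Its log2 fold change of -0.32 did not pass (SE 0.12, adjusted p = 0.0843 by edgeR) and was -0.15 without siC1QBP replicate 1, the library with the lowest value. It was called without siC1QBP replicate 2 (-0.46, adjusted p = 0.0214 by edgeR) and with all genes of at least 1 count (0.00532).

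In the mitochondrial counterpart of the thioredoxin chain the reductase and the thioredoxin both fell. TXNRD2 (ENSG00000184470; chromosome 22, 19875517 to 19941992, minus strand), mitochondrial thioredoxin reductase, had 20.1, 23.7 and 23.0 CPM in siC1QBP, against 28.98, 31.8 and 27.0 CPM in siNC libraries. The log2 fold change was -0.40 (SE 0.09, adjusted p = 0.00501 by edgeR), called in all 19 alternatives with adjusted p up to 0.0465. TXN2 (ENSG00000100348; chromosome 22, 36467036 to 36482030, minus strand), mitochondrial thioredoxin, stood at 62.6, 62.1 and 57.7 CPM in siC1QBP, against 67.4, 76.9 and 72.5 CPM in siNC libraries. With a log2 fold change of -0.25 (SE 0.06, adjusted p = 0.0107 by edgeR) it was called, but not when siC1QBP replicate 3 (adjusted p = 0.0553 by edgeR) or siNC replicate 2 (0.0844) was left out and after removal of the trend with gene length (0.0629). The ratio of TXNRD1 to TXNRD2, each in CPM per kilobase of listed gene length, was 69.3, 55.3 and 57.0 in siC1QBP and 44.0, 38.8 and 46.1 in siNC libraries.

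Peroxiredoxins, which reduce hydrogen peroxide with a reactive cysteine, split in direction: of 6, 2 rose and 2 fell. The share called was 66.7%, against 14.3% of all tested genes (6.47% higher and 7.84% lower). PRDX4 (ENSG00000123131; chromosome X, 23664262 to 23686399, plus strand), the form of the endoplasmic reticulum, had 77.4, 82.2 and 83.5 CPM in siC1QBP, against 61.4, 63.5 and 58.9 CPM in siNC libraries. The lowest siC1QBP library was above the highest siNC library. PRDX4 rose by 0.40 on the log2 scale (95% interval 0.29 to 0.51, adjusted p = 0.000169 by edgeR) and was called in all 20 alternatives, between 0.37 and 0.48. PRDX6 (ENSG00000117592; chromosome 1, 173477266 to 173488807, plus strand), the form with a single catalytic cysteine that also handles phospholipid peroxides, stood at 231, 247 and 239 CPM in siC1QBP, against 208, 211 and 214 CPM in siNC libraries. Its rise of 0.18 (SE 0.04, adjusted p = 0.00948 by edgeR) missed the threshold without siC1QBP replicate 2 (adjusted p = 0.0527 by edgeR) or siNC replicate 2 (0.0588).

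The peroxiredoxins that fell are both found in mitochondria. PRDX3 (ENSG00000165672; chromosome 10, 119167703 to 119178833, minus strand), found only there, had 198, 206 and 221 CPM in siC1QBP, against 242, 237 and 229 CPM in siNC libraries (log2 fold change -0.18, SE 0.05, adjusted p = 0.0175 by edgeR). Its call ended when siC1QBP replicate 2, siNC replicate 1 or siNC replicate 2 was left out, with edgeR adjusted p up to 0.0792. PRDX5 (ENSG00000126432; chromosome 11, 64318088 to 64321811, plus strand), of mitochondria, peroxisomes and cytosol, had 176, 217 and 239 CPM in siC1QBP, against 237, 281 and 282 CPM in siNC libraries. Here the groups overlapped, siC1QBP replicate 3 lying above siNC replicate 1. The fall of 0.34 (SE 0.08, adjusted p = 0.0121 by edgeR) was lost with DESeq2 (adjusted p = 0.104) and without siNC replicate 2 (adjusted p = 0.0827 by edgeR) or 3 (0.0747), and without siC1QBP replicate 1 it was 0.23. PRDX1 did not differ beyond the spread (log2 fold change -0.01, 95% interval -0.09 to 0.08), with 217, 209 and 205 CPM in siC1QBP and 210, 211 and 212 CPM in siNC libraries. PRDX2, the other abundant cytosolic form, was lower without overlap, at 156, 152 and 155 against 160, 170 and 173 CPM, but did not pass (-0.12, SE 0.05, adjusted p = 0.0883 by edgeR), and HOOK2 on the same strand overlaps it with 26.1% of its counts. PRDX2 was called without siC1QBP replicate 1 (adjusted p = 0.0443 by edgeR), siNC replicate 1 (0.0395) or both (0.00148), and stood at -0.04 with the length trend removed. PRDX3, PRDX5, TXN2 and TXNRD2 were thus all called lower by edgeR. These thioredoxin and peroxiredoxin genes were grouped by compartment after their values were seen, and this grouping carries no test. DESeq2 called 3 of these 4, and 7.84% of all tested genes were called lower by edgeR. The grouping took in no mitochondrial genes of other families. Among called genes outside the list, mitochondrial SOD2 rose (log2 fold change 0.37), while mitochondrial GLRX5 (-0.31) and SELENOO (-0.35) fell. Mitochondrial genes that were not called are left out of that comparison, among them NNT (0.003) and IDH2 (-0.12).

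**Figure D2:**
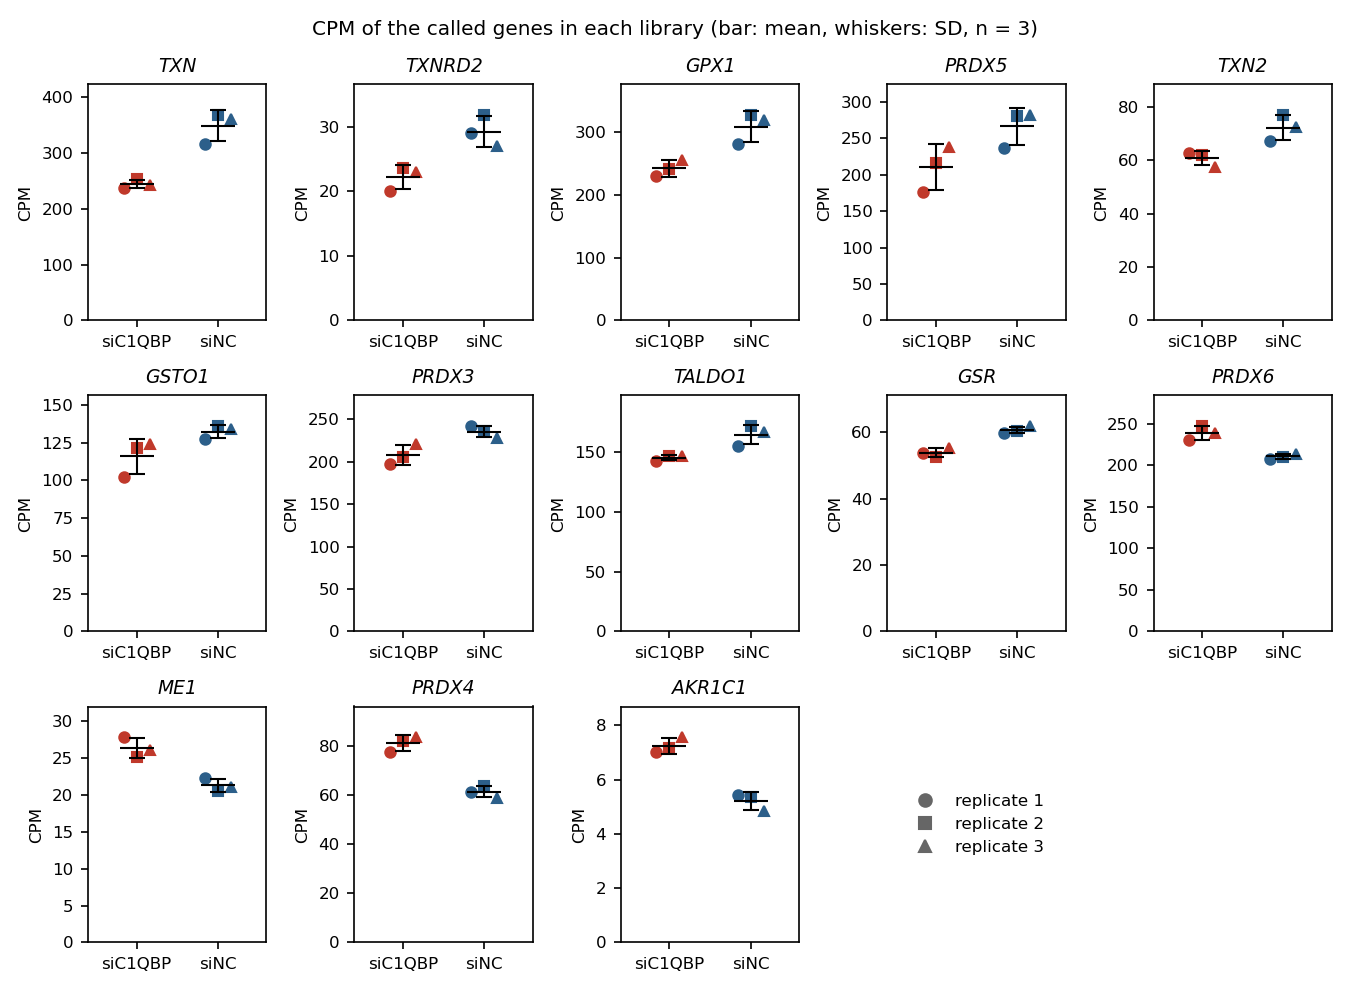
CPM on TMM-scaled library sizes (y axes, from 0) of the 13 called genes in the 3 siC1QBP (red) and 3 siNC (blue) libraries, ordered by fold change; symbols mark replicates, the horizontal bar the mean and the whiskers the SD. The groups are separate in every panel except PRDX5, where siC1QBP replicate 3 (239 CPM) lies above siNC replicate 1 (237 CPM).

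Of 18 other genes for thioredoxin-like, glutaredoxin, methionine sulfoxide and superoxide reactions, all tested, 2 rose and 3 fell (27.8%, against 14.3% of all tested genes). SOD2, the manganese superoxide dismutase of mitochondria, rose to 140 ± 3.09 CPM in siC1QBP, against 108 ± 2.95 CPM in siNC libraries (SD, n = 3 each; log2 fold change 0.37, SE 0.05, adjusted p = 8.27e-05 by edgeR). SESN2, a sestrin induced by stress, rose to 39.2 ± 1.82 against 31.0 ± 2.17 CPM (0.33, SE 0.07, adjusted p = 0.00472 by edgeR). GLRX5, a mitochondrial glutaredoxin of iron-sulfur cluster assembly, fell to 102 ± 5.62 against 126 ± 3.39 CPM (-0.31, SE 0.05, adjusted p = 0.000856 by edgeR). GLRX3 (-0.20) and TXNDC17 (-0.38) were the other falls, both lost without siNC replicate 2 or 3. TXNDC17 stood at 35.1, 55.0 and 55.1 CPM in siC1QBP, against 57.1, 66.1 and 65.7 CPM in siNC libraries. Its log2 fold change was -0.20 without siC1QBP replicate 1, the lowest library, and its call was also lost with DESeq2 (adjusted p = 0.247), library size only and the 10 CPM filter. On the list itself, cytosolic SOD1, at 115, 127 and 129 CPM in siC1QBP and 128, 134 and 134 CPM in siNC libraries, and catalase, CAT, at 40.3, 45.7 and 38.7 against 44.0, 40.5 and 41.2 CPM, were not called (log2 fold changes -0.09 and -0.01, adjusted p = 0.262 and 0.935 by edgeR).

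Of 6 enzymes that conjugate electrophiles to glutathione, 1 was called (16.7%, against 14.3% of all tested genes). GSTP1, the most abundant transferase per length, had 347, 343 and 339 CPM in siC1QBP and 312, 352 and 360 CPM in siNC libraries (log2 fold change 0.01, 95% interval -0.09 to 0.10, adjusted p = 0.954 by edgeR). GSTO1 (ENSG00000148834; chromosome 10, 104235356 to 104267459, plus strand), an omega-class enzyme with thiol transferase activity, fell to 102, 122 and 124 CPM in siC1QBP, against 127, 136 and 134 CPM in siNC libraries. That fall was 0.19 (SE 0.06) with an edgeR adjusted p of 0.0495, and 10 of 19 alternatives did not call it, among them the fit without siC1QBP replicate 1, where it was 0.11. GSTM3, GSTK1, MGST1 and MGST3 had log2 fold changes from -0.13 to 0.07, and none was called (lowest edgeR adjusted p = 0.215). MGST1, a microsomal transferase, was higher without overlap, at 287, 295 and 297 CPM in siC1QBP and 278, 276 and 285 CPM in siNC libraries (0.07, 95% interval -0.01 to 0.15). Of 17 tested further genes of glutathione handling (26 listed) 1 rose and 1 fell, or 11.8%, against 14.3% of all tested genes. The one that rose was SLC7A11, the cystine transporter that feeds glutathione synthesis and is a target of both NRF2 and ATF4, at 81.2 ± 4.02 in siC1QBP, against 62.0 ± 3.10 CPM in siNC libraries (SD, n = 3 each; log2 fold change 0.39, SE 0.06, adjusted p = 0.000332 by edgeR). The one that fell was glyoxalase GLO1 (-0.16, adjusted p = 0.0408 by edgeR), whose call ended when any 1 library other than siC1QBP replicate 1 was left out.

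Of the 4 genes grouped under NADPH supply and the pentose phosphate pathway, 1 rose and 1 fell (50% called, against 14.3% of all tested genes). ME1 (ENSG00000065833; chromosome 6, 83210389 to 83431071, minus strand), cytosolic malic enzyme, had 27.8, 25.2 and 26.1 CPM in siC1QBP, against 22.3, 20.5 and 21.1 CPM in siNC libraries, without overlap. The log2 fold change of 0.31 (SE 0.08, adjusted p = 0.013 by edgeR) was not called without siNC replicate 2 (adjusted p = 0.0764 by edgeR) or 3 (0.0578). TALDO1 (ENSG00000177156; chromosome 11, 747329 to 765024, plus strand), transaldolase of the pentose phosphate pathway, stood at 143, 147 and 147 CPM in siC1QBP, against 155, 171 and 167 CPM in siNC libraries. Its log2 fold change was -0.18 (SE 0.05, adjusted p = 0.0177 by edgeR), and this call too ended without siNC replicate 2 (adjusted p = 0.117 by edgeR) or 3 (0.0915). Transketolase, TKT, in the same branch, was higher without overlap but not called, at 529, 496 and 495 CPM in siC1QBP and 465, 484 and 466 CPM in siNC libraries (0.10, SE 0.04, adjusted p = 0.113 by edgeR). It was called with library size only (adjusted p = 0.0378 by edgeR), with upper-quartile scaling (0.0485) and with the 10 CPM filter (0.0386). PGD, 6-phosphogluconate dehydrogenase, overlapped between groups (-0.02, adjusted p = 0.868 by edgeR). Of all tested genes 14.3% were called by edgeR, but 0 of 15 other NADPH genes by edgeR, DESeq2 or limma-voom. Of these 15 genes 1 had an unadjusted edgeR p under 0.05. Among them IDH1, cytosolic isocitrate dehydrogenase, averaged 151 ± 2.57 CPM over siC1QBP libraries, against 149 ± 7.92 CPM over siNC (SD, n = 3 each, log2 fold change 0.02, adjusted p = 0.807 by edgeR).

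Promoter windows were searched for the core of the antioxidant response element because several genes of the list are NRF2 targets by reputation. Windows from RefSeq (GRCh38.p14), 250 bases before to 50 after each annotated start, were in the table for 33 of the 42 genes. TGACNNNGC, read on both strands, occurred in 9 of these 33 (27.3%) and in 16.1% of all 27305 genes of the table. TGACTCAGC, a subset of it that also holds an AP-1 site, occurred in 2 of the 33, ME1 and GSTP1, and in 0.689% of all genes. A match describes letters and not a bound site, and some windows hold more than 1. Windows of 29 bases are shown for ME1, which rose, and for GSTP1, GCLM and TXNRD1, which were not called, with the match in capitals, 5' to 3' on the strand of the gene:
ME1: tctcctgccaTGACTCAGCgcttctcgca
GSTP1: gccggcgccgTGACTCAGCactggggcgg
GCLM: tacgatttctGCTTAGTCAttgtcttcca
TXNRD1: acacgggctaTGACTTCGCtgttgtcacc
They lie at chr6:83431170-83431198 (minus strand), chr11:67583736-67583764 (plus strand), chr1:93909446-93909474 (minus strand) and chr12:104215670-104215698 (plus strand), and the match begins 137, 66, 34 and 99 bases before the start. In GCLM the match is on the opposite strand. The whole ME1 window (chr6:83431002-83431301, minus strand) is shown as the context of the consensus match in the gene that rose; it also holds a second match, on the opposite strand, 11 bases after the start:
ME1: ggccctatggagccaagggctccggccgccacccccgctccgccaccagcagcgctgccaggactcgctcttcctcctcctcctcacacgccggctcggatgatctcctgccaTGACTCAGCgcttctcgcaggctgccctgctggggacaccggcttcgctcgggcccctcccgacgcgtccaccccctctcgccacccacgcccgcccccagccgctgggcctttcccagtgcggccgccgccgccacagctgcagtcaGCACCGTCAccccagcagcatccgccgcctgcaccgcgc
Of the 9 genes with a match, ME1 was called higher, GSTO1 lower, and KEAP1, GCLM, GPX2, TXNRD1, GSTP1, MGST1 and PGD were not called.

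The classical NRF2 readouts NQO1 and HMOX1 were not called and lay on opposite sides of 0. NQO1, the quinone reductase most used as an NRF2 marker, was higher without overlap, at 211, 215 and 208 CPM in siC1QBP and 196, 201 and 192 CPM in siNC libraries, but did not pass (log2 fold change 0.11, SE 0.04, adjusted p = 0.104 by edgeR). It passed in 6 of 19 alternatives, among them library size only (adjusted p = 0.0431 by edgeR) and removal of the length trend (0.0211). HMOX1, heme oxygenase, was lower without overlap, at 12.3, 11.02 and 10.3 CPM in siC1QBP and 14.1, 13.0 and 13.1 CPM in siNC libraries (-0.25, SE 0.11, adjusted p = 0.118 by edgeR), and passed in none of 19 alternatives. Of 14 other tested NRF2 targets (15 listed), 3 rose and 2 fell, 35.7% against 14.3% of all tested genes. ABCC3, an exporter of organic anions, rose to 139 ± 9.28 CPM in siC1QBP, against 104 ± 5.77 CPM in siNC libraries (SD, n = 3 each; 0.42, SE 0.06, adjusted p = 0.000148 by edgeR), and epoxide hydrolase EPHX1 rose by 0.23 (SE 0.06, adjusted p = 0.0123 by edgeR). The other rise was SLC7A11, given above. Carbonyl reductase CBR1 (-0.25, adjusted p = 0.0228 by edgeR) and TRIM16 (-0.20, adjusted p = 0.0239 by edgeR) fell. The EPHX1 call ended without siC1QBP replicate 2 or siNC replicate 2, the CBR1 call without siNC replicate 2 or 3, and the TRIM16 call when either replicate 2 or either replicate 3 was left out.

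Ferritin transcripts were the most abundant of the list per length and were not called. FTH1, the heavy chain with ferroxidase activity, had 711, 683 and 639 CPM in siC1QBP and 657, 680 and 684 CPM in siNC libraries (log2 fold change 0.01, 95% interval -0.08 to 0.10, adjusted p = 0.922 by edgeR). FTL, the light chain that supports iron core formation, had 907, 867 and 829 CPM in siC1QBP and 799, 865 and 854 CPM in siNC libraries (0.05, 95% interval -0.04 to 0.13, adjusted p = 0.532 by edgeR). The ratio of FTL to FTH1 in CPM per kilobase was 2.95, 2.93 and 3.00 in siC1QBP and 2.81, 2.94 and 2.89 in siNC libraries, which overlap. Of 25 annotated pseudogene copies of FTH1, 17 had counts, together 1.04% of those of FTH1. Both transcripts carry an iron-responsive element near their start, the hairpin by which iron regulatory proteins block ferritin translation, so that mRNA level is not the main point of iron control. The loop is in capitals in these 28 bases (GENCODE release 29, sense strand):
FTH1: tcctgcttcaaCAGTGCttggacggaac
FTL: tcttgcttcaaCAGTGTttggacggaac
They lie at chr11:61967574-61967601 (minus strand) and chr19:48965336-48965363 (plus strand), with the loop beginning at base 71 of the FTH1 and 47 of the FTL transcript. The search was for C, any 5 bases and CAGTGN on the sense strand. Of 11074 genes with a leader of over 150 bases, 4.85% hold such a match in the first 150 bases.

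The 4 aldo-keto reductases of the list had positive log2 fold changes, at low levels, and 1 was called (25%, against 14.3% of all tested genes). AKR1C1 (ENSG00000187134; chromosome 10, 4963253 to 4983283, plus strand), a ketosteroid reductase, had 7.003, 7.15 and 7.56 CPM in siC1QBP, against 5.43, 5.36 and 4.85 CPM in siNC libraries. It rose by 0.47 (SE 0.14, adjusted p = 0.0297 by edgeR), a call that ended with DESeq2 (adjusted p = 0.0533) and when either replicate 2 or either replicate 3 was left out, with edgeR adjusted p up to 0.112. AKR1C2 had 3.72, 4.15 and 4.52 CPM in siC1QBP and 3.07, 3.27 and 2.23 CPM in siNC libraries (0.53, SE 0.20, adjusted p = 0.0883 by edgeR). AKR1C3, which also makes prostaglandin F, had 12.5, 12.7 and 12.3 CPM in siC1QBP and 11.2, 9.23 and 10.7 CPM in siNC libraries (0.27, SE 0.11, adjusted p = 0.111 by edgeR). Each of these 3 was separate between the groups. The coding sequences of AKR1C1 and AKR1C2 are 98% identical, and those of AKR1C3 and AKR1C1 91.4%, so the split of reads between them is uncertain. Summed as 1 feature, they had a log2 fold change of 0.37 (SE 0.08, adjusted p = 0.00511 by edgeR). AKR1B10, a distinct reductase of aldehydes and retinal with 57% identity to AKR1C1, overlapped between groups (0.20, SE 0.16, adjusted p = 0.436 by edgeR).

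Across the list the level per length spanned more than 3 orders of magnitude in siNC libraries. In CPM per kilobase FTL had 988 ± 44.1 in siC1QBP and 956 ± 40.3 in siNC libraries, and FTH1 334 ± 17.9 and 332 ± 7.22 (SD, n = 3 each). TXN came next in siNC libraries, with 214 ± 6.67 in siC1QBP and 305 ± 24.2 in siNC, and then PRDX5, with 236 ± 35.3 and 298 ± 29.1. In siNC libraries FTH1 and TXN, and TXN and PRDX5, differed by less than the sum of their SDs. NFE2L2 itself stood at 20.8 ± 0.832 in siC1QBP and 20.05 ± 0.675 in siNC libraries, and the lowest genes were AKR1C1, AKR1C2 and GPX2, all under 1. The listed length counts every annotated exon of a gene, for all 42 genes, so genes with long minor transcripts read low on this scale.

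**Figure D3:**
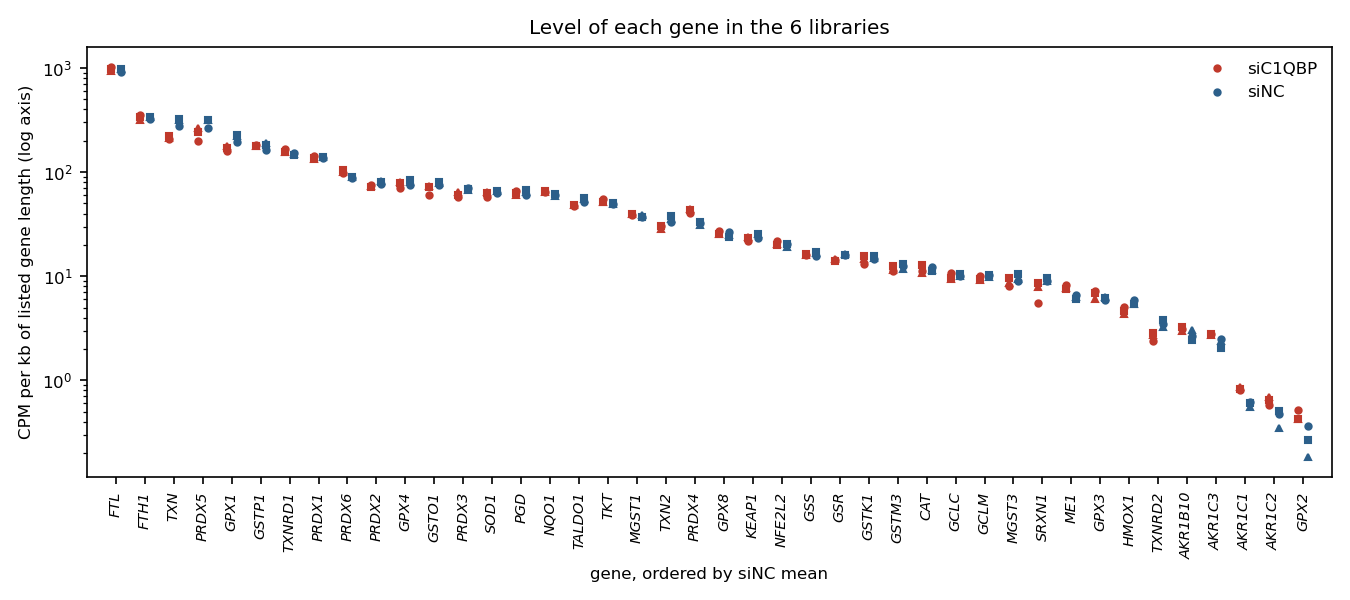
Level of each of the 42 genes in CPM per kilobase of listed gene length (log axis), ordered by the siNC mean, in the 3 siC1QBP (red, left of each tick) and 3 siNC (blue, right) libraries; symbols mark replicates as circle, square and triangle for 1, 2 and 3. FTL leads and GPX2 is lowest, and TXN separates between the groups (237 to 252 against 317 to 367 CPM before division by length).

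Gene length moved with the fold changes of all genes and is given here beside the list. Among tested genes under 1500 bases 3.49% were called higher and 8.84% lower, from 1500 to under 3000 bases 2.78% and 13.1%, from 3000 to under 6000 bases 4.89% and 8.38%, and from 6000 bases 11.1% and 4.05%. The share called lower was thus highest in the second of these 4 length classes, which holds 14 of the 42 genes, 2 higher and 2 lower. Of the 5 listed genes under 1500 bases, TXN (1142), PRDX5 (893) and GPX1 (1430) fell, and FTL (878) and GPX2 (1499) were not called. With each library's trend with length removed, TXN stood at -0.45, PRDX5 at -0.30 and GPX1 at -0.27 and all were still called, PRDX4 stood at 0.48, and the list had 5 higher and 6 lower genes with a median of 0.019. With mitochondrially encoded genes left out of the fit, the same 13 genes were called, 4 higher and 9 lower. The part of the keratin falls, the SERPINA1 rise and the number of genes with a count in these results was not tested. Without both replicates 1 the counts were 6 higher and 11 lower, and all 13 genes called with the 6 libraries were among them.

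**Figure D4:**
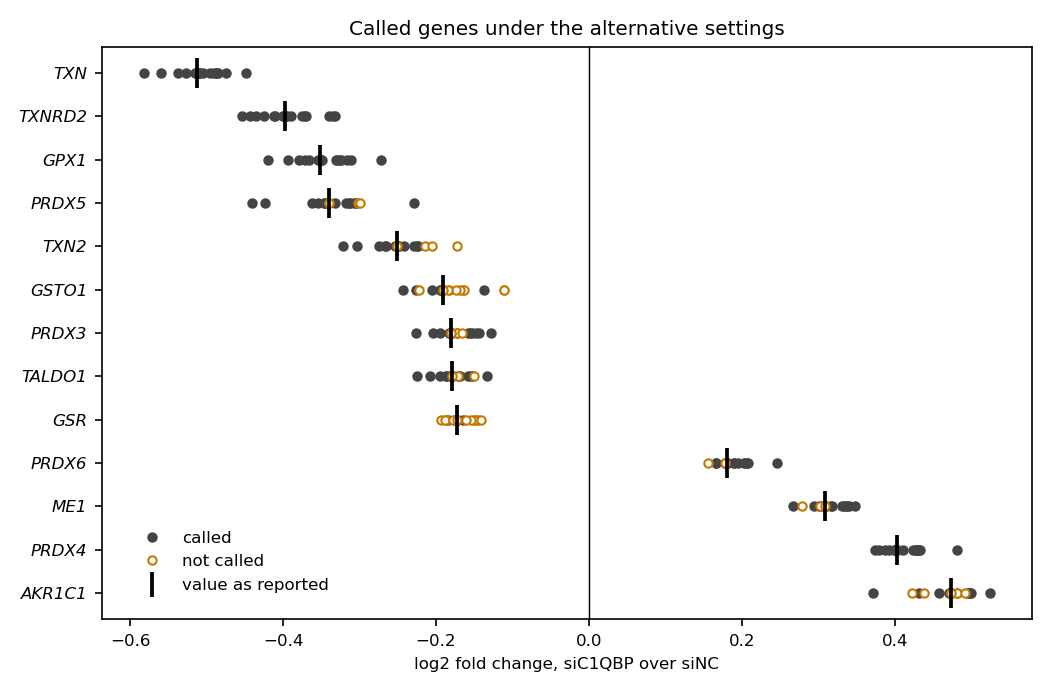
Log2 fold change (x axis) of the 13 called genes as reported (vertical tick) and under each alternative setting (points); filled points were called at that setting and open points were not. TXN, TXNRD2, GPX1 and PRDX4 have filled points only, and no gene crosses 0.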

How the data were processed

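A table of gene counts, not normalized, was deposited by the authors for 58735 genes, with 1 column per library. The build is hg38, per the submitters' processing notes, while aligner, counter and strand setting were not given in the sources used here. Libraries came from a strand-marking kit, per the labels' protocols. Gene names, coordinates and lengths of all 42 genes matched GENCODE release 29. Every row carried a gene name, and 0 per-sample columns were left unused.

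Counts were tested with edgeR 4.0.16 (R 4.3.3): TMM scaling, filterByExpr, quasi-likelihood test of treatment, 15530 genes tested, Benjamini-Hochberg adjustment, calls under 0.05. The SE is the log2 fold change over the root of F. CPM use TMM-scaled library sizes. The test was also run on counts simulated with planted changes and the spread fitted to these libraries. Those counts held no trend with gene length and no replicate that stood apart, so they say nothing on either. No pair of libraries within a group agreed within sampling noise (chi-square per degree of freedom at least 2.09). Alternatives were DESeq2 1.42.0, limma-voom (limma 3.58.1), other scalings and filters, each library left out, a replicate block, removal of the length trend, summed AKR1C genes, added pseudogene counts, and, chosen after seeing the data, both replicates 1 left out. Sequences were read with Python 3.11.15 and Biopython 1.88; figures used matplotlib 3.10.9.

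The genes and companion lists were chosen with earlier results of these data known. All 42 genes are given; from each companion list up to 3 called genes per direction with the smallest p are named, or with no call the 2 of highest CPM per kilobase. Overlapping genes and copies are named from 10% of the member's counts, and GPX1P1, RPL18AP3 and the FTH1 copies below that were added after their values were seen. Some genes that these rules would name are not reported here.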

Additional observations from a re-analysis of the deposited data

How the results depend on the processing

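No called gene changed direction in any alternative. For the 42 genes, 739 alternative values kept their call or lack of one, 48 lost a call and 22 gained one. TXN, GPX1, TXNRD2 and PRDX4 were called in every alternative that could be fitted; GPX1 was not in the fit on protein-coding genes. Over all genes, leaving out 1 library gave 1105 to 2583 calls (524 to 1115 higher and 581 to 1468 lower), against 2222 (1005 and 1217), the lowest without siNC replicate 2; without siNC replicate 3 there were 1178. For the list, it gave 4 to 13 calls (1 to 4 higher and 3 to 9 lower) and medians from -0.063 to 0.0079. At an adjusted p of 0.01, 1057 genes passed (478 higher and 579 lower) and 5 of the list (2 higher and 3 lower). Library size as the only scaling gave 1253 higher and 908 lower genes, upper-quartile scaling 1280 and 946, and the list 7 higher genes with the first. Removal of the length trend gave a list median of 0.019. Without both replicates 1, 3287 genes were called (1375 higher and 1912 lower) and 17 of the list (6 and 11). Deviations of libraries with the same replicate number correlated at 0.0998, 0.0535 and 0.0173, and not every library correlated best with its own number, so the numbers were not taken as pairs; the replicate block gave 3092 calls over all genes and 16 of the list, adding PRDX2, SRXN1 and NQO1. Of the 27 other genes called in the companion and marker lists, C1QBP included, 16 kept their call without siNC replicate 2 and 16 without siNC replicate 3. GPX2, with 60 counts in all libraries, and the AKR1C genes are limited by depth.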

Other observations

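Genes of iron and heme handling around ferritin were examined beside the list. Of 16 tested (17 listed), 1 rose and 2 fell (18.8%, against 14.3% of all tested genes). SLC39A14, a transporter of zinc and non-transferrin iron, rose to 178 ± 3.26 CPM in siC1QBP, against 154 ± 4.23 CPM in siNC libraries (SD, n = 3 each; log2 fold change 0.20, SE 0.04, adjusted p = 0.00505 by edgeR), a call lost without siNC replicate 3. PCBP1, a poly(C)-binding protein that delivers iron to ferritin, fell to 90.3 ± 11.3 against 119 ± 0.720 CPM (-0.39, SE 0.07, adjusted p = 0.00125 by edgeR). HMOX2, the constitutive heme oxygenase, fell to 43.5 ± 1.07 against 51.5 ± 2.64 CPM (-0.25, SE 0.06, adjusted p = 0.0126 by edgeR), a call lost without siNC replicate 2 or 3. Among 6 tested further aldo-keto reductases (9 listed) 3 had positive and 3 negative log2 fold changes, and AKR1B1, aldose reductase, was the 1 called, at 107 ± 10.4 in siC1QBP, against 87.5 ± 5.45 CPM in siNC libraries (0.29, SE 0.07, adjusted p = 0.00718 by edgeR). The share called among these 6 was 16.7%, against 14.3% of all tested genes. Within the interval of TXNRD1, on the same strand, the processed pseudogene RPL18AP3 held 6.14% as many counts and had a log2 fold change of -0.35 (edgeR adjusted p = 0.00244).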
